A study of Mus musculus with 15 samples.

Results

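Desmosomes are cell junctions that tie the keratin filaments of neighbouring keratinocytes together. Desmogleins and desmocollins, the desmosomal cadherins, meet those of the next cell outside the membrane. Inside, the armadillo proteins plakoglobin and the plakophilins bind the cadherin tails, and desmoplakin links them to keratin. In mouse epidermis Dsg3 and Dsc3 are strongest in the lower layers, Dsg1 and Dsc1 proteins are strongest in the upper layers, and Dsg2 and Dsc2 are best known from simple epithelia and hair follicles.

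The genes described are 10 of the 37583 genes in the count tables, found by matching the Ensembl gene ID to the mouse symbols Dsc1, Dsc2, Dsc3, Dsg1a, Dsg2, Dsg3, Pkp1, Pkp3, Jup and Dsp. All 10 passed the filter on low counts. RNA came from skin tumour cells of C57BL/6 mice that had received the mutagen DMBA and the tumour promoter TPA for more than 24 weeks, a treatment that every group shares. Mice were labelled SIRT6 KO (K14-cre with SIRT6 flox/flox, here KO) or WT. The K14 promoter drives Cre in keratinocytes, and the age and sex of the mice and any Cre in WT mice are not given in the sources used here. Cells were sorted into CD34+ a6-high, CD34- a6-high and CD34- a6-low populations, where a6 is the integrin alpha 6 chain encoded by Itga6. Each population had 2 KO and 3 WT libraries, 15 in all. Nothing in the labels ties replicates to separate mice, and p-values here cover only the spread among the sequenced samples, some of which may be technical.

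Libraries held 10.08 to 28.62 M gene counts, and the 10 genes had between 45 and 34983 counts in a library. Markers of basal keratinocytes (Krt5, Krt14, Itga6, Itgb4, Col17a1 and Trp63) summed to at least 34710 CPM in every library, where CPM is counts per 1000000 on a library size scaled with edgeR's TMM method. Sirt6 ranged over 5.07 to 8.53 CPM in the 6 libraries labelled KO, overlapping with 4.45 to 10.5 CPM in the 9 WT libraries. The tables count the gene as a whole and no source used here names the floxed exons, so Sirt6 is no check of the genotype label. In the a6-low population Itga6 was at 67.9, 94.1 and 174 CPM in KO replicate 1, WT replicate 2 and WT replicate 3, but at 446 CPM in KO replicate 2 and 471 CPM in WT replicate 1. These last levels lie within the 263 to 576 CPM of the a6-high libraries, and the comparisons with a6-low cells give, beside their main values, what changes without both. The 3 libraries of KO replicate 2 alone expressed the Y-linked gene Ddx3y above 0.222 CPM.

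Per kilobase of exon (GENCODE M21), 4 genes led. Jup, the plakoglobin gene, averaged 121 ± 33.1 CPM per kb (SD, n = 15), the plakophilin gene Pkp3 117 ± 21.7, Dsc3 114 ± 24.8 and the plakophilin gene Pkp1 76.7 ± 24.5 CPM per kb. The first 3 differed by less than their spread. Dsp, the desmoplakin gene, at 37.5 ± 11.2 CPM per kb and Dsg3 at 34.7 ± 12.7 CPM per kb also differed by less than their spread, and Dsc2 followed at 21.1 ± 17.2 CPM per kb. Dsg1a at 5.71 ± 4.73, Dsc1 at 4.54 ± 4.82 and Dsg2 at 2.41 ± 1.76 CPM per kb were the lowest, again within their spread of one another. By coding length in place of exon length, a choice made after the data were seen, 5 of the 10 genes kept their place, and Jup stayed first and Dsg1a, Dsc1 and Dsg2 stayed last. Over the 15 libraries the highest level was between 1.95 times (Pkp3) and 3.14 times (Dsg3) the lowest for the 6 more abundant genes. The other 4, all cadherin genes, varied more, 17.7 times for Dsc1, 12.4 times for Dsg1a, 11.3 times for Dsg2 and 10.0 times for Dsc2.

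**Figure D1:**
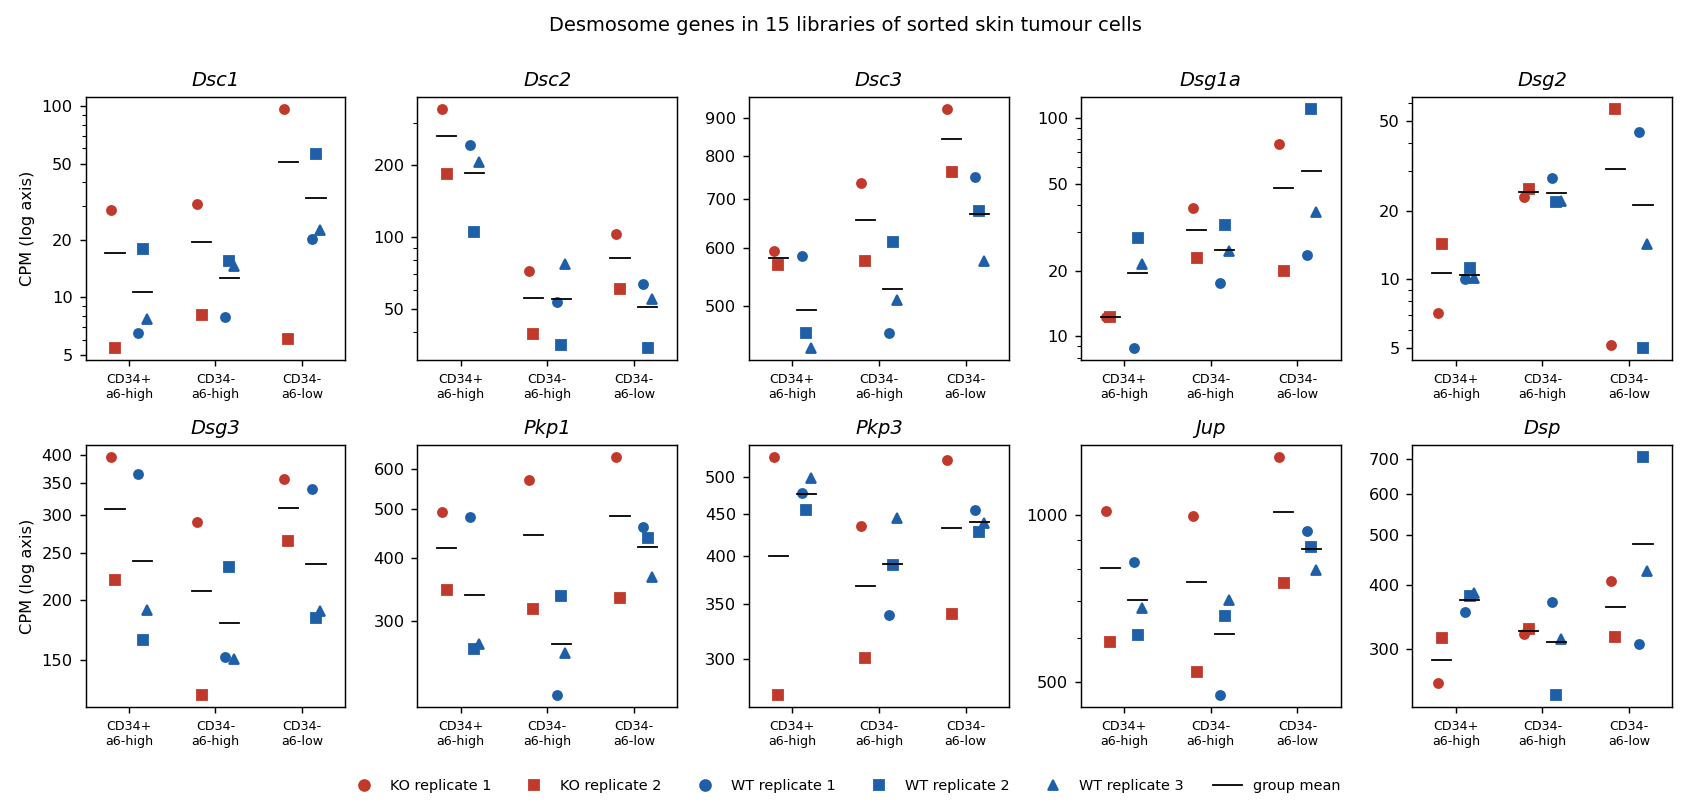
Level of each desmosome gene (CPM, log axis, each panel with its own range) in the 15 libraries, by population, with KO libraries left of WT libraries and a line at each group mean. Dsc2 is at 105 to 342 CPM in CD34+ a6-high, 35.1 to 76.7 CPM in CD34- a6-high and 34.2 to 102 CPM in a6-low libraries. Dsg2 is spread from 4.99 to 56.3 CPM in a6-low libraries.

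CD34 is a surface protein known from bulge cells of the hair follicle, and it divided the a6-high cells here. Of the desmocollins, Dsc2 rose in CD34+ a6-high cells relative to CD34- a6-high cells, while Dsc1 and Dsc3 did not pass the test. Dsc2 was at 342 and 183 CPM in KO replicates 1 and 2 and at 242, 105 and 206 CPM in WT replicates 1 to 3 of the CD34+ population. It was at 71.7 and 39.1 CPM in KO replicates 1 and 2 and at 53.4, 35.1 and 76.7 CPM in WT replicates 1 to 3 of the CD34- a6-high population. The 2 populations did not overlap, and Dsc2 was higher in the CD34+ library of each of the 5 same-numbered pairs. The share of all tested genes with 1 direction in all 5 pairs was not counted, here or below. The rise was 3.98-fold (log2 1.99 ± 0.33 SE, edgeR quasi-likelihood test, adjusted p = 0.0131) in the fit without a block, from which alone libraries were left out. With the animal label (genotype and replicate number) as a block in edgeR, the rise was log2 1.98 ± 0.14 SE (adjusted p = 0.000658). It lost its call without the CD34+ library of KO replicate 1 (log2 1.73, adjusted p = 0.0685), the CD34- a6-high library of KO replicate 1 (2.25, 0.0618) or that of KO replicate 2 (1.81, 0.0803), and without all 3 libraries of KO replicate 2 (2.0, 0.0747).

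Dsc3, the desmocollin gene of the lower layers, averaged 529 ± 73.9 CPM in CD34+ and 578 ± 105 CPM in CD34- a6-high libraries (SD, n = 5 each; log2 -0.13 ± 0.15 SE, edgeR adjusted p = 0.773). Dsc1, that of the upper layers, lay at 5.44 to 28.5 CPM in CD34+ and at 7.93 to 30.8 CPM in CD34- a6-high libraries (log2 -0.22 ± 0.68 SE, adjusted p = 0.944). The make-up of the desmocollin RNA differed in the same way. Of the summed counts per kb of the 3 desmocollin genes, Dsc2 held 28.1 ± 6.83% in CD34+ a6-high libraries, against 8.80 ± 3.06% in CD34- a6-high and 7.51 ± 1.79% in CD34- a6-low libraries (SD, n = 5 each). Its share was 18.3% to 35.9% in CD34+ libraries and 5.42% to 13% in CD34- a6-high libraries, with no overlap. This share is built from the same Dsc2 counts as above, so it is no separate evidence. Dsc3 held the largest share in every library, 70.1 ± 6.79% in CD34+ and 88.8 ± 3.34% in CD34- a6-high libraries.

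**Figure D2:**
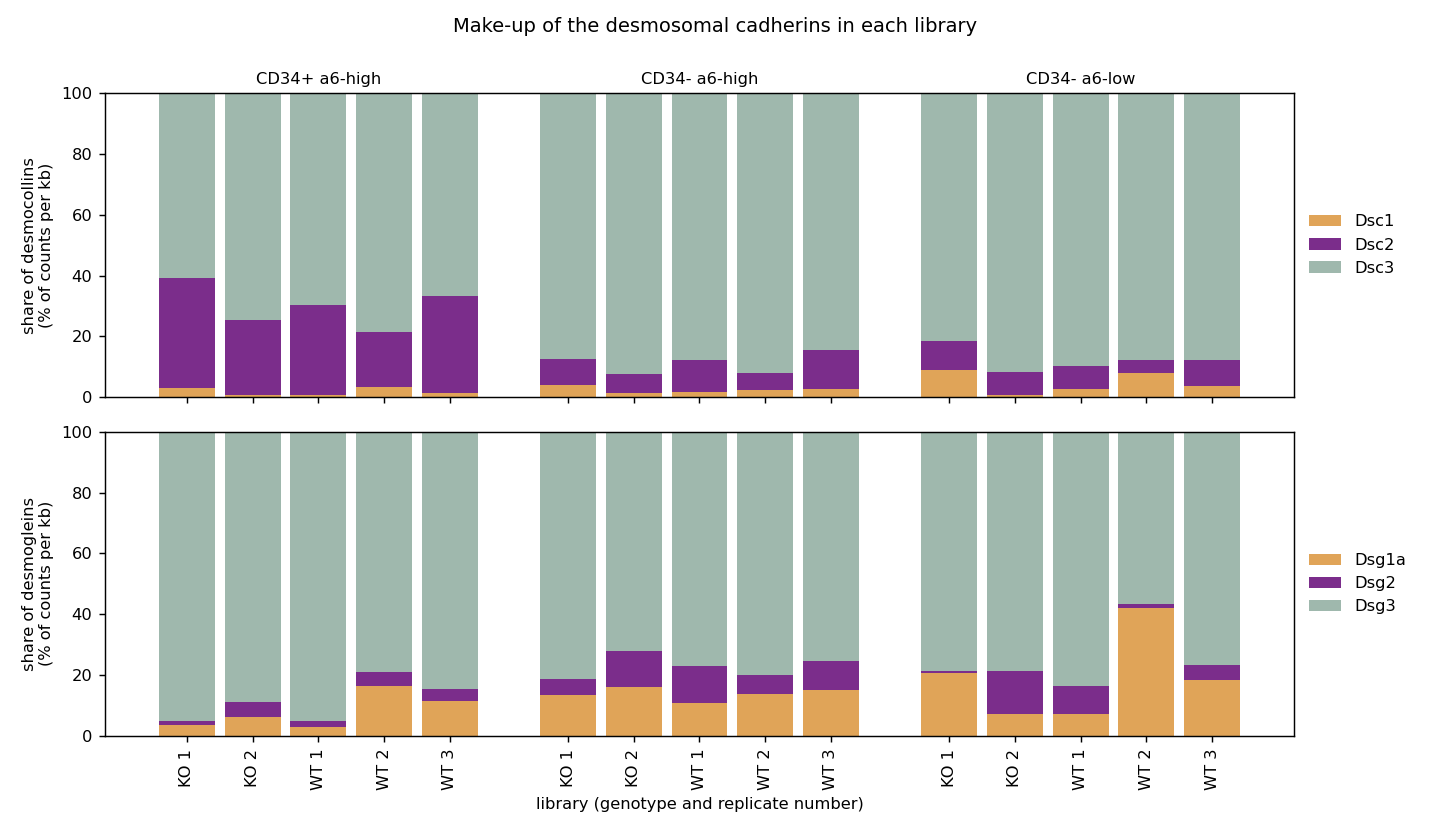
Share of each gene in the summed counts per kb of the 3 desmocollin genes (top) and of Dsg1a, Dsg2 and Dsg3 (bottom, without Dsg1b), in percent, for each of the 15 libraries. Dsc2 takes 18.3% to 35.9% of the desmocollins in CD34+ a6-high libraries and at most 13% in the others. Dsg1a takes 41.9% of the 3 desmoglein genes shown in the a6-low library of WT replicate 2.

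Of the desmogleins, none passed the test between CD34+ and CD34- a6-high cells. Dsg2 was at 7.10 and 14.3 CPM in KO replicates 1 and 2 and at 10.1, 11.3 and 10.2 CPM in WT replicates 1 to 3 of the CD34+ population. It was at 23.2 and 25.1 CPM in KO replicates 1 and 2 and at 28.1, 21.8 and 22.2 CPM in WT replicates 1 to 3 of the CD34- a6-high population. The populations did not overlap, and Dsg2 was lower in the CD34+ library of each of the 5 pairs. Its difference of log2 -1.19 ± 0.60 SE had an adjusted p of 0.384 in edgeR, of 0.202 with this block, of 0.025 when only the 4 compared groups were fitted and of 0.00963 with no filter on low counts. Dsc2 and Dsg2 were the 2 of 10 genes whose CD34+ and CD34- a6-high libraries did not overlap, beside 4.2% of all 14652 tested genes. Of the summed counts per kb of Dsg1a, Dsg2 and Dsg3 alone, Dsg2 held 1.43% to 4.88% in CD34+ and 5.48% to 12.1% in CD34- a6-high libraries, with no overlap. This share is built from the same Dsg2 counts, so it is no separate evidence. Among these 3 genes Dsg3 held the largest share in each library, 88.5 ± 6.89% in CD34+ a6-high, 77.1 ± 3.68% in CD34- a6-high and 74.9 ± 10.4% in CD34- a6-low libraries (SD, n = 5 each). These shares leave out another desmoglein gene, Dsg1b, so they overstate each gene's part in all desmoglein RNA. In the same order of populations Dsg1b averaged 11.3, 7.62 and 12.4 CPM per kb, against 2.92, 4.80 and 9.41 CPM per kb for Dsg1a.

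Dsg1a, 1 of the mouse genes for desmoglein 1, was at 12.3 and 12.3 CPM in KO replicates 1 and 2 and at 8.85, 28.2 and 21.4 CPM in WT replicates 1 to 3 of the CD34+ population. In the CD34- a6-high population it was at 38.7 and 22.8 CPM in KO replicates 1 and 2 and at 17.6, 32.6 and 24.8 CPM in WT replicates 1 to 3. Dsg1a was lower in the CD34+ library of all 5 pairs, the ranges overlapped, and the difference did not pass (log2 -0.84 ± 0.48 SE, edgeR adjusted p = 0.466, with the block 0.131). Its near copy Dsg1b, which encodes another mouse desmoglein 1, lay on the other side, at 44.6 ± 15.4 CPM in CD34+ and 30.2 ± 13.4 CPM in CD34- a6-high libraries (SD, n = 5 each; log2 0.56 ± 0.35 SE, adjusted p = 0.517), and it rose with the animal label as a block (log2 0.59 ± 0.14 SE, adjusted p = 0.0342). Dsg1a held 14.9% to 41.4% of the summed counts of Dsg1a and Dsg1b in CD34+ libraries and 42.2% to 56.6% in CD34- a6-high libraries, a ratio chosen after its values were seen. The summed level of both copies overlapped, at 41.6 to 82.7 CPM in CD34+ and 38.35 to 90.6 CPM in CD34- a6-high libraries. Of the 50-base stretches of Dsg1a transcripts 35% occur in another gene, mainly Dsg1b, so the level of each copy is uncertain, since reads that fit several places were not counted. Dsg3, the desmoglein gene of the lower layers, was at 166 to 397 CPM in CD34+ and 127 to 290 CPM in CD34- a6-high libraries (log2 0.50 ± 0.31 SE, edgeR adjusted p = 0.524).

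The armadillo genes and the plakin gene differed little with CD34. Pkp1 averaged 371 ± 112 CPM in CD34+ and 339 ± 138 CPM in CD34- a6-high libraries, Pkp3 446 ± 102 and 382 ± 61.8 CPM, Jup 743 ± 177 and 670 ± 205 CPM, and Dsp 338 ± 52.9 and 316 ± 45.6 CPM (SD, n = 5 each). Their log2 differences were 0.12 ± 0.25, 0.20 ± 0.19, 0.14 ± 0.23 and 0.04 ± 0.21 (SE), with adjusted p from 0.73 to 0.968 in edgeR. In all, 1 of 10 desmosome genes was called between CD34+ and CD34- a6-high cells, beside 1.17% of all tested genes, and with the block again 1 of 10, beside 5.41%. The 10 genes had a median log2 difference of 0.08, against -0.02 for all tested genes, and 6 were higher and 4 lower. That tally rested on single libraries: without the CD34+ library of KO replicate 1, 3 were higher and 7 lower, and over all 10 libraries left out in turn the signs of Pkp1, Pkp3, Jup, Dsc1 and Dsp turned at least once.

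The other desmosome genes listed, Dsg1b, Dsg1c, Dsg4, Pkp2, Pkp4, Perp, Cdsn, Ppl and Evpl, and 9 adherens junction genes gave 0 calls between CD34+ and CD34- a6-high cells in edgeR, with 0 at an unadjusted p under 0.05. Of all 14652 tested genes, 171 were called and 2217 were under that unadjusted p. Of the 9 other desmosome genes 7 were tested, 5 higher and 2 lower in CD34+ cells, and Dsg1c and Dsg4 were too low to test, at up to 0.777 and 0.141 CPM. Pkp4, a plakophilin-like gene (log2 -0.39 ± 0.24 SE, adjusted p = 0.497), and Dsg1b had the smallest p of this list. All 9 adherens junction genes were tested, 5 higher and 4 lower. Nectin4, which encodes an adhesion protein of these junctions, had the smallest p (log2 0.83 ± 0.39 SE, edgeR adjusted p = 0.342) and rose with the block (0.81 ± 0.17, adjusted p = 0.0257), and its relative Nectin1 followed (0.37 ± 0.21, adjusted p = 0.466). Perp, a p53 target whose membrane protein is needed for desmosomes in mouse skin, was the most abundant of the junction genes at 5472 to 11050 CPM and had a log2 difference of 0.02 ± 0.17 SE (adjusted p = 0.987). Markers of other cells differed between these libraries too. The summed level of 5 endothelial markers was 6.26 to 50.8 CPM in CD34+ and 1.05 to 2.61 CPM in CD34- a6-high libraries, with 4 of 4 tested ones higher in CD34+ libraries and none at 0 throughout a population. The 5 suprabasal markers found (Krt1, Krt10, Ivl, Lor and Sbsn) summed to 1217 to 6825 CPM in CD34+ and 2159 to 10520 CPM in CD34- a6-high libraries, with 3 of 5 higher and 2 of 5 lower in CD34+ libraries. With the block Krt1 and Krt10 fell (log2 -1.14 and -1.22, edgeR adjusted p = 0.0177 and 0.0308), while Sbsn (1.23, 0.00211) and the endothelial marker Plvap (3.68, 0.0493) rose. Of the tested markers in the other lists, melanocyte ones were 4 of 4 higher in CD34+ libraries (median log2 1.42) and fibroblast ones 4 of 4 lower (-1.62). Leukocyte ones were 1 of 4 higher and 3 of 4 lower (-1.19), and basal ones 2 of 6 higher and 4 of 6 lower (-0.22). None in these last lists passed in edgeR with or without the block. The part of all these markers in the values of Dsc2, Dsg1a or Dsg2 was not tested.

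Against CD34- a6-low cells, Dsc2 again rose in CD34+ a6-high cells. The CD34+ libraries are the same as above, so this is no separate evidence of their level. Dsc2 was at 102 and 60.4 CPM in KO replicates 1 and 2 and at 63.4, 34.2 and 54.5 CPM in WT replicates 1 to 3 of the a6-low population. Its highest a6-low level lay just under its lowest CD34+ level (102 and 105 CPM). The share of all genes without overlap was not counted for these 2 populations. The rise was 3.42-fold (log2 1.78 ± 0.33 SE, edgeR adjusted p = 0.0156), with the block log2 1.75 ± 0.14 SE (adjusted p = 0.00106), and the call was lost without the CD34+ library of KO replicate 1 (log2 1.51, adjusted p = 0.0777) and without the 3 libraries of KO replicate 2 (1.80, 0.0625). Dsc3 was at 594 and 567.6 CPM in KO replicates 1 and 2 and at 585, 460 and 438 CPM in WT replicates 1 to 3 of the CD34+ population, against 926 and 761 CPM (KO) and 749, 673 and 576 CPM (WT) in the a6-low population. Dsc1 was at 28.5 and 5.44 CPM (KO) and 6.51, 18.0 and 7.71 CPM (WT) in the CD34+ population, and its a6-low libraries, at 6.10 to 96.3 CPM, overlapped with these. With the animal label as a block 3 more genes passed, all lower in CD34+ cells. Dsg1a fell by 1.56 ± 0.30 on the log2 scale (SE, edgeR adjusted p = 0.00957, without the block 0.058). Its near copy Dsg1b did not pass with the block (log2 -0.10 ± 0.13 SE, edgeR adjusted p = 0.703). The ranges of their summed level overlapped, at 41.6 to 82.7 CPM in CD34+ and 47.7 to 159.9 CPM in a6-low libraries. The sum was 82.7 and 41.6 CPM (KO) and 48.7, 67.9 and 65.3 CPM (WT) in CD34+ libraries. It was 159.9 and 47.7 CPM (KO) and 62.55, 159.4 and 82.9 CPM (WT) in a6-low libraries. The sum was thus lower in the CD34+ library of each same-numbered pair. Whether desmoglein 1 RNA as a whole fell was not tested. Dsc1 fell by 1.35 ± 0.29 (SE, edgeR adjusted p = 0.0163, without the block 0.204). The Dsc1 difference leaned on the a6-low library of KO replicate 1, since without the block it was log2 -0.07 once that library was left out. Last, Dsc3 fell by 0.48 ± 0.13 (adjusted p = 0.0446, without the block 0.075). That made 1 of 10 genes called without and 4 of 10 with the block, beside 4.93% and 11.8% of all tested genes. The cadherin gene Cdh1 of adherens junctions, which encodes E-cadherin, also fell with the block (log2 -0.86 ± 0.22 SE, adjusted p = 0.031, without the block 0.0551), and of both other lists no further gene passed. Without the block the smallest p of these lists after Cdh1 were those of the catenin gene Ctnnd1 (log2 -0.36 ± 0.15 SE, adjusted p = 0.191), Perp (-0.40 ± 0.17, 0.205) and Pkp4 (-0.45 ± 0.24, 0.294). The remaining members did not pass in either fit, with log2 differences of -1.28 ± 0.60 for Dsg2, -0.35 ± 0.21 for Dsp, -0.32 ± 0.23 for Jup, -0.26 ± 0.25 for Pkp1, 0.00 ± 0.31 for Dsg3 and 0.00 ± 0.19 for Pkp3 (SE, edgeR without the block). The value of Dsg2 leaned on the a6-low library of KO replicate 2, with log2 0.01 without it. Leaving out both a6-low libraries with high Itga6 was an alternative added once the data were known. Without them and without a block, Dsg1a passed in edgeR (log2 -2.28, adjusted p = 0.0113) and Dsc2 still passed (1.71, 0.0324). Dsg2 turned to 0.58 (0.366), and the median of the 10 genes was -0.44, against -0.34 with them. The libraries left out also had the lowest Dsg1a of the a6-low population (20.03 and 23.8 CPM). The value of Dsg1a without them is therefore no test of Dsg1a. Markers of other cells moved between these populations as well. Suprabasal markers summed to 1217 to 6825 CPM in CD34+ and 4026 to 23340 CPM in a6-low libraries, 3 of 5 higher and 2 of 5 lower, and with the block Krt1 and Krt10 fell (log2 -2.21 and -2.08, edgeR adjusted p = 0.00144 and 0.0029) and Sbsn rose (0.81, 0.00763). Leukocyte markers summed to 1.63 to 28.8 CPM in CD34+ and 15 to 164 CPM in a6-low libraries, 1 of 4 higher and 3 of 4 lower. Cd74 made up most of each sum, and Ptprc was the gene that was higher (log2 0.24, edgeR adjusted p = 0.924). Lyz2 fell without the block (log2 -4.71, edgeR adjusted p = 0.0179), while Cd3e was at 0 in both populations. Fibroblast markers, 4 of 4 lower, summed to 0 to 0.328 CPM in CD34+ and 0.415 to 4.33 CPM in a6-low libraries. Endothelial markers were 4 of 4 higher (median log2 0.815), melanocyte markers 1 of 4 higher and 3 of 4 lower (-1.40). Basal markers were 5 of 6 higher and 1 of 6 lower (0.17). None of these fibroblast, endothelial, melanocyte or basal markers passed in edgeR with or without the block. The part of all these markers in the values of Dsg1a, Dsc1 and Dsc3 was not tested.

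**Figure D3:**
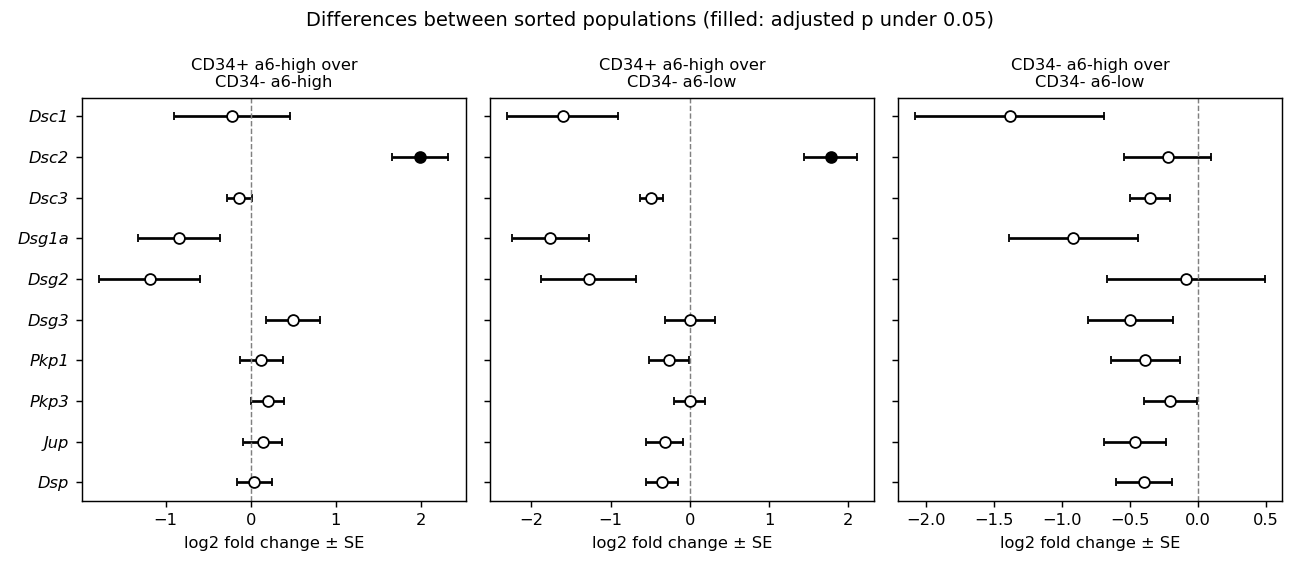
Log2 fold change ± SE of the 10 genes (edgeR, 15 libraries, no block) for CD34+ a6-high over CD34- a6-high cells, CD34+ a6-high over CD34- a6-low cells and CD34- a6-high over CD34- a6-low cells. Filled points have an adjusted p under 0.05, which holds for Dsc2 in the first panel (1.99) and the second (1.78).

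Between CD34- a6-high and CD34- a6-low cells all 10 genes had lower fitted levels in a6-high cells in the fit without a block. Their log2 differences there had a median of -0.39, against -0.02 for all tested genes. None passed in edgeR or DESeq2, beside 0.00683% of all tested genes called in edgeR. At an unadjusted p under 0.05 in edgeR was 1 of 10 (Dsc3), beside 1621 of all 14652 tested genes. Dsc3 averaged 578 ± 105 CPM in a6-high and 737 ± 129 CPM in a6-low libraries and Jup 670 ± 205 and 926 ± 206 CPM (SD, n = 5 each), with log2 differences of -0.35 ± 0.15 and -0.46 ± 0.23 (SE, adjusted p = 0.395 and 0.492). Dsc3, Pkp1 and Jup were lower in the a6-high library of all 5 same-numbered pairs. The share of all tested genes with such pairs was not counted, and the pairing of these populations is uncertain (correlation above 0.1 in 3 of 5 pairs). No desmosome gene had groups that did not overlap, beside 1.77% of all tested genes. The remaining log2 differences were between -1.39 ± 0.69 for Dsc1 and -0.09 ± 0.58 for Dsg2 (SE). Both signs rested on single libraries: leaving out KO replicate 1 of the a6-low population put Dsc1 at log2 0.14, and leaving out KO replicate 2 there put Dsg2 at 1.20, whose sign also turned without WT replicate 1. Without both a6-low libraries with high Itga6, 9 genes were lower and Dsg2 higher, with a median of -0.48. In the list of other desmosome genes, 1 higher and 6 lower, Perp (log2 -0.41 ± 0.17 SE, adjusted p = 0.404) and the periplakin gene Ppl (-0.57 ± 0.27, adjusted p = 0.475) had the smallest p. Of the adherens junction genes, 1 higher and 8 lower, these were Cdh1 (-0.82 ± 0.23, adjusted p = 0.246) and Nectin1 (-0.61 ± 0.21, adjusted p = 0.325), and 0 genes of both lists passed in edgeR, with 1 and 3 at an unadjusted p under 0.05. With the animal label as a block 0 of the 10 desmosome genes passed, beside 0.41% of all tested genes, and Nectin4 fell (log2 -1.04, adjusted p = 0.0487) and was lower in the a6-high library of all 5 pairs. In that fit Dsg2 was higher in a6-high cells (log2 0.39 ± 0.53 SE, edgeR adjusted p = 0.795). Dsg2 was higher in the a6-high library of 3 of the 5 pairs. In each marker list most or all tested genes lay on the same side, but the sums overlapped between the 2 populations. Without the block 0 markers passed in edgeR. Basal markers (6 of 6 higher in a6-high libraries, median log2 0.61) summed to 54180 to 83120 CPM in a6-high and 34710 to 67430 CPM in a6-low libraries, and suprabasal markers (5 of 5 lower, median -0.63) to 2159 to 10520 CPM in a6-high and 4026 to 23340 CPM in a6-low libraries. Leukocyte markers (3 of 4 lower, median -2.33) summed to 0.46 to 120 CPM in a6-high and 15 to 164 CPM in a6-low libraries, with the T cell gene Cd3e at 0 in all a6-low libraries. Cd74 made up most of each sum, at 13.65 to 156 CPM in a6-low libraries. Ptprc lay on the other side (log2 1.32, edgeR adjusted p = 0.673), at up to 0.509 CPM in a6-low libraries. Endothelial, fibroblast and melanocyte markers were each 4 of 4 lower, with sums of up to 2.61, 3.87 and 4.59 CPM in a6-high libraries, against up to 17.3, 4.33 and 139 CPM in a6-low libraries. With the block the leukocyte marker Lyz2 fell (log2 -3.52, edgeR adjusted p = 0.0495). Their part in these values was not tested, and in sorted bulk samples fewer cells of a type and less RNA per cell cannot be told apart.

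Within the a6-low population the levels of Dsg2 and Dsg1a divided the libraries the way Itga6 did. Dsg2 was at 5.13, 4.99 and 14.4 CPM in the libraries of KO replicate 1, WT replicate 2 and WT replicate 3, where Itga6 was low, and at 56.3 and 44.4 CPM in KO replicate 2 and WT replicate 1, where Itga6 was high. Dsg1a ran the other way, with 76.2, 110 and 37.2 CPM where Itga6 was low and 20.03 and 23.8 CPM where it was high. For Dsc1 the values were 96.3, 56.0 and 22.5 CPM against 6.10 and 20.1 CPM in the same order of libraries. Krt10, which encodes a suprabasal keratin, had 8555, 12270 and 5777 CPM against 1833 and 2837 CPM. These values are a description, since the libraries were told apart by a measured gene. The direction of Dsg2 between a6-high and a6-low cells rested on the 2 libraries with high Itga6. It was log2 -0.09 ± 0.58 SE (edgeR adjusted p = 0.983) with them and log2 1.77 without them. Since they were picked by a gene that Dsg2 followed here, the second value is no test of Dsg2. For Dsp the a6-low library of WT replicate 2 had 708 CPM, against 307 to 424 CPM elsewhere in this population.

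**Figure D4:**
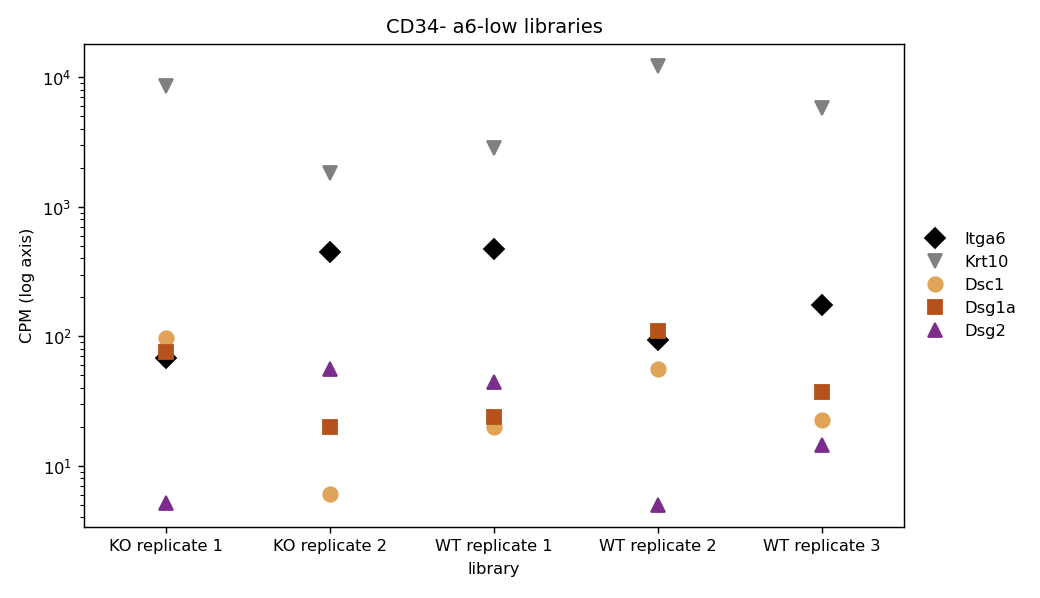
Levels (CPM, log axis) of Itga6, the suprabasal keratin gene Krt10 and the cadherin genes Dsc1, Dsg1a and Dsg2 in the 5 CD34- a6-low libraries. Dsg2 is highest in KO replicate 2 and WT replicate 1 (56.3 and 44.4 CPM), the libraries with Itga6 at 446 and 471 CPM and the lowest Krt10.

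Between libraries labelled KO and WT none of the 10 genes passed in any population. By edgeR 0 of 10 were called in CD34+ a6-high, CD34- a6-high and CD34- a6-low cells, with 0 at an unadjusted p under 0.05, and by DESeq2 likewise 0. Of all 14652 tested genes edgeR called 0.00683% in each population, with 1112, 1405 and 687 in turn at an unadjusted p under 0.05. In counts summed over the 3 populations of an animal label, 2 KO against 3 WT sums, 0 of 10 were called by either tool, beside 0.00641% of 15597 genes. The 10 genes had a median log2 difference of 0.25 in the sums (0.03 for all tested genes), 8 higher and 2 lower in libraries labelled KO. Without the sum of KO replicate 1, 2 were higher and 8 lower (median -0.20), and Dsc1, Dsc2, Dsg1a, Dsg3, Pkp1 and Jup turned sign. Without KO replicate 2 the tally was again 8 and 2, with Dsg2 and Pkp3 turned. Over all libraries no desmosome gene separated the 6 KO from the 9 WT libraries, beside 0.744% of all tested genes.

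By role, the KO and WT values lay as follows. Dsc3 had a mean of 693 ± 142 CPM over the 6 KO libraries and of 562 ± 106 CPM over the 9 WT libraries (SD), with a log2 difference in the sums of 0.28 ± 0.16 SE (edgeR adjusted p = 0.534). The mean of Pkp1 was 449 ± 136 CPM in KO and 343 ± 98.7 CPM in WT (0.36 ± 0.26, adjusted p = 0.608), and its difference in CD34- a6-high cells was 0.72 ± 0.36 (adjusted p = 0.528). That of Dsp was 325 ± 47.6 CPM in KO and 387 ± 131 CPM in WT (-0.18 ± 0.14, adjusted p = 0.628). Dsc2, the gene that moved with CD34, had a log2 difference of 0.40 ± 0.39 SE in the sums (adjusted p = 0.699). The spread between the 2 KO animal labels was large: in CD34+ a6-high cells Jup was at 1015 CPM in KO replicate 1 and 591 CPM in KO replicate 2, on both sides of the 609 to 821 CPM of WT libraries. Among the other lists, Afdn, the afadin gene of adherens junctions (log2 0.78 ± 0.22 SE in the sums, adjusted p = 0.461), and Cdsn, the corneodesmosin gene of the cornified layer (1.96 ± 0.59, adjusted p = 0.461), had the smallest p of their lists, the next in each list being Cdh1 (0.40 ± 0.20, 0.495) and Pkp2 (0.72 ± 0.70, 0.698), and 0 genes passed in edgeR, with 1 in each list at an unadjusted p under 0.05. In the sums 4 of 4 tested leukocyte, 4 of 4 melanocyte and 4 of 5 suprabasal markers were higher and 4 of 4 endothelial markers lower in KO. In edgeR 0 of these passed, with 3, 2, 1 and 1 at an unadjusted p under 0.05, beside 1656 of all 15597 tested genes. The melanocyte markers summed to 139 CPM in the a6-low library of KO replicate 1 and to at most 6.56 CPM in any other library. Of the tested melanocyte markers 1 of 4 was higher and 3 of 4 lower in KO in CD34+ a6-high cells. In each of the other populations 4 of 4 were higher. The part of all these marker lists in the values of the junction genes was not tested.

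**Figure D5:**
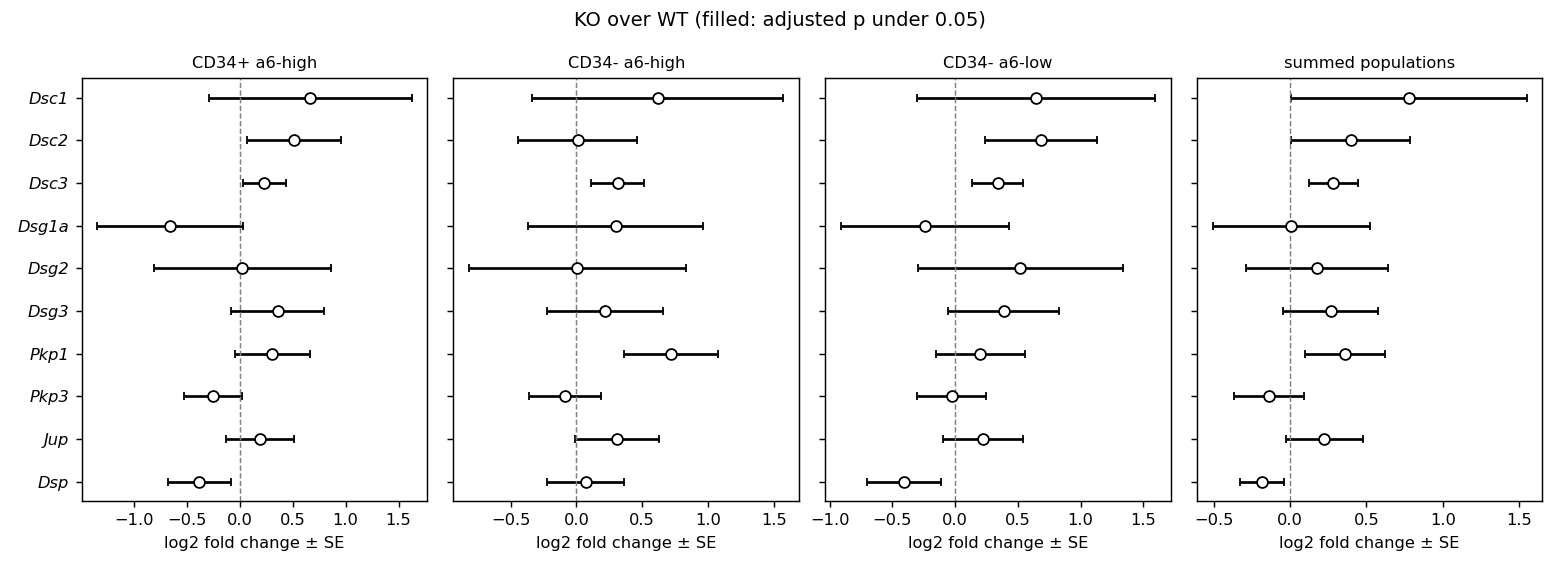
Log2 fold change ± SE of the 10 genes for libraries labelled KO over WT libraries in the 3 populations and in counts summed over the populations (edgeR, no block). No point is filled, as none has an adjusted p under 0.05, and the log2 difference of Dsc3 in the sums is 0.28.

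Whether the CD34 difference itself depended on genotype was tested by an interaction term. None of the 10 genes passed in edgeR or DESeq2, and 0 reached an unadjusted p under 0.05 in edgeR. Of all 14652 tested genes edgeR called 0%, with 159 under that unadjusted p. Dsc2 was higher in CD34+ cells by 2.24 and 2.20 in the KO pairs and by 2.16, 1.55 and 1.41 in the WT pairs on the scale of log2(CPM + 1), and the interaction was log2 0.50 ± 0.64 SE (edgeR adjusted p = 1). The a6 difference likewise showed no dependence on genotype that passed in edgeR, with 0 of 10 genes and 0% of all tested genes called. At an unadjusted p under 0.05 were 0 of the 10, beside 168 of all 14652 tested genes.

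Among themselves the 10 genes fell into different patterns over the 15 libraries, given as Pearson correlations of log2(CPM + 1), which share the libraries and the animals behind them. Pkp1 and Jup were most alike (r = 0.888), followed by Dsc3 and Pkp1 (0.812), Dsg3 and Pkp1 (0.80) and Dsc1 and Dsg1a (0.791). Dsc2 and Dsg1a (-0.595) and Dsc1 and Dsg2 (-0.536) were least alike. Outside the set, of 9231 genes compared, the closest to Dsc2 were Slc4a11 (r = 0.937), Peak1 (0.929) and Sh2d5 (0.928). Among those closest to Dsg1a were Slc5a9 (0.961) and the suprabasal keratin gene Krt10 (0.958). The closest to Dsg2 were Atp8b2 (0.944), Tmem158 (0.916) and Trim47 (0.912), and the closest to Dsc1 were Ggt6 (0.922), Pld1 (0.92) and Ankrd35 (0.919). For Dsc3 they were Zfp217 (0.941), Casz1 and Riok3 (0.931 each), and for Dsg3 Eif3c (0.944), Magt1 (0.933) and Ranbp9 (0.92). For Pkp1 they were Tiam1 (0.946), Naa25 and Snf8 (0.933 each), and for Pkp3 Ric8a (0.904), Pak4 (0.893) and Mal2 (0.879). For Jup they were the receptor gene Erbb2 (0.924), Clcn3 (0.917) and Esrp2 (0.913), and for Dsp Dbi (0.909), Mfsd8 (0.887) and Dhrs7 (0.865).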

How the data were processed

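The authors deposited 1 table per library, with read counts per Ensembl gene as whole numbers that were not normalized. Libraries were made with SMART-Seq v4, a kit that keeps no strand, per the labels' protocols. The submitters' processing notes name STAR 2.3.0, Picard 1.100, HTSeq 0.6.0 and mm9 without saying which did what. No source used here states the annotation behind the counts. Entries that name no gene (5 per table) stayed out of library sizes and tests, namely reads with several alignments (29.9% to 38%), reads in no gene (2.61% to 5.13%) and ambiguous reads (1.86% to 2.2%). Symbols were found for 87.4% of genes. Exon lengths came from GENCODE M21, which belongs to another build, so levels per kb are approximate and no coordinates are given. In it Dsg2 and Dsp overlap antisense genes, whose reads cannot be told apart without strand.

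All 15 libraries entered 1 edgeR 4.0.16 fit in R 4.3.3, with TMM scaling, a filter by filterByExpr and a coefficient for each group. Quasi-likelihood tests were adjusted over all tested genes (Benjamini-Hochberg, 0.05), and standard errors follow from the F statistic. A population difference is the mean of its KO and WT values. Alternatives were DESeq2 1.42.0, its size factors, other filters, a fit of the compared groups, a replicate block and leaving out each library. The main fit had no block, and libraries were left out only from fits without a block. How far blocked results depend on single libraries was not tested.

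Pairing by animal label (genotype and replicate number) was judged from the data, not the labels, by correlating deviations from group means. These were above 0.1 in every pair between CD34+ and CD34- a6-high (0.104 to 0.53) and between CD34+ a6-high and a6-low libraries (0.273 to 0.589), where the fit with a block is given beside the main fit. They were not for KO with WT libraries (1 of 6 pairs) or CD34- a6-high with a6-low libraries (3 of 5), although these carry the same animal labels, so the pairing is uncertain. With 2 KO libraries in a group, both KO pairs carry the same value. No replicates were repeat deposits (chi-square per degree of freedom of at least 38.5).

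The members and lists were chosen with earlier results of these data known. All 10 members are described. From the other junction lists the text names what passed, or the 2 genes with the smallest p, and for each member the 3 genes of highest correlation among those with a mean of at least 4 CPM, leaving out predicted genes and pseudogenes. For Dsg1a 1 of these 3 is not reported here. Marker lists covered basal, suprabasal, leukocyte, endothelial, fibroblast and melanocyte genes. Fibroblast markers summed to at most 4.33 CPM and melanocyte markers to at most 139 CPM, the highest in an a6-low library. Flg was not used here.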

Additional observations from a re-analysis of the deposited data

Results flagged for a closer look

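Pkp3 in the CD34+ a6-high population was at 270.7 CPM in KO replicate 2, far below the other 4 libraries at 454.6 to 528.7 CPM. The gap to the nearest library was 0.713 of the range, above Dixon's critical value for 5 samples. This was 1 of 30 such checks of the desmosome genes, and chance flags about 1 in 20 groups. The library of KO replicate 2 also had the lowest Pkp3 of the a6-high CD34- and of the a6-low libraries (301 and 341 CPM), and it comes from the animal label whose libraries express Ddx3y. Its part in the Pkp3 level was not tested.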

How the results depend on the processing

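Counts of genes called depended on the processing. For CD34+ against CD34- a6-high, CD34+ a6-high against a6-low and CD34- a6-high against a6-low cells in turn, the main counts were 171, 722 and 1. DESeq2 gave 853, 1596 and 243, no filter on low counts 1242, 1900 and 602, the replicate block 793, 1733 and 60, and the compared groups alone 311, 422 and 0. Requiring 10 CPM in 2 libraries gave 3 for the last. The main, DESeq2 and block fits tested 14652 genes, no filter 25149 and 10 CPM in 2 libraries 8866. The compared groups alone tested 14214 genes in the first comparison and 14084 in the last. Without the 3 libraries of KO replicate 2 the counts were 32, 116 and 0, and without the 2 a6-low libraries with high Itga6 the last was 342. Leaving out 1 library gave 7 to 258, 41 to 691 and 1 to 50. For KO against WT in CD34+ a6-high, CD34- a6-high and CD34- a6-low cells and in the sums the main count was 1 each. DESeq2 gave 27, 38, 6 and 143, no filter 195, 256, 156 and 6, and the replicate block 2, 2, 2 and 0. The compared groups alone gave 2 in CD34+ a6-high and 0 in a6-low cells. Leaving out 1 library gave 1 to 2 in both a6-high populations, 1 in a6-low cells and 0 to 10 in the sums. The CD34 interaction went from 0 to 1 with DESeq2 and to 20 with no filter, and the a6 interaction to 13 with no filter. The causes were not tested.

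Of the desmosome genes, 2 were called with CD34 (Dsc2 and Dsg2) with no filter and when only the compared groups were fitted, and 0 to 1 when 1 library was left out, or 0 without the 3 libraries of KO replicate 2. In CD34+ a6-high against a6-low cells the count was 3 with DESeq2, 4 with no filter, 4 with the replicate block, 2 with the stricter filter, 2 without the 2 a6-low libraries, 0 without the 3 libraries of KO replicate 2 and 0 to 2 with 1 library left out. The count without the 2 a6-low libraries included Dsg1a, for which that fit is no test. In the a6 comparison the count was 1 with no filter (Dsc1), and without the 2 a6-low libraries Dsg2 turned to log2 1.77. With no filter 1242 of 25149 genes were called with CD34 and 602 in the a6 comparison. The compared groups alone gave 311 of 14214 genes with CD34. Most counts over all genes for the other settings stand in the paragraph above. The replicate block changed no call of a desmosome gene other than those given with the results. In the a6 comparison, where the check of pairs did not pass, and in the genotype comparisons, where libraries share only a number, it called 0 of 10. By coding length 5 genes kept their rank. DESeq2 size factors moved the median of all genes by at most 0.037 on the log2 scale and changed no call of a desmosome gene. Counts limit Dsg2 most, with 45 in 1 a6-low library.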

Other observations

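Cdsn, the gene of the corneodesmosome protein corneodesmosin, followed neither population nor genotype as a whole. It was at 17.4, 9.78 and 26.2 CPM in the CD34+ a6-high, CD34- a6-high and CD34- a6-low libraries of KO replicate 1, and at 9.32, 2.76 and 1.58 CPM in those of KO replicate 2. Of the WT libraries, the CD34- a6-high library of replicate 1 had 12.2 CPM, while the other 8 ranged over 0.957 to 4.07 CPM. Pkp2, the plakophilin gene best known from heart, stayed at or below 0.731 CPM in every library.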
